A study of Homo sapiens with 2 samples.

Results

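The miRNAs described here are the guide products of the miR-99/100 and miR-125 families, namely hsa-miR-99a, hsa-miR-99b, hsa-miR-100, hsa-miR-125a-5p and hsa-miR-125b, together with hsa-miR-125a-3p, the opposite arm of the miR-125a hairpin. They were taken by name from an array with 718 probe names, 670 of them human miRNA names, and all 6 were on the array. The cells were HepG2, a human line from a hepatocellular carcinoma, and the series asked how TCDD, the dioxin best known as a ligand of the aryl hydrocarbon receptor, changes their small RNAs. One array, called the control array below, held RNA of control cells, and the other held RNA of cells labelled as exposed to TCDD at 10 nM for 48 h. The labels do not say what vehicle, if any, the control cells received. With 1 array per group there was no spread between replicates and therefore no test, and every direction rests on the deposited labels.

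In vertebrates these families are made from gene clusters in which a miR-99/100 hairpin, a let-7 hairpin and a miR-125 hairpin follow each other. miR-125 is the vertebrate counterpart of lin-4 of Caenorhabditis elegans, which with let-7 sets the timing of larval development. miR-99 and miR-100 are known to repress mTOR and the insulin-like growth factor 1 receptor, miR-125a and miR-125b to repress ERBB2, ERBB3 and LIN28, and let-7 to repress RAS genes and LIN28, whose protein in turn blocks let-7 maturation. miR-99a and miR-125b are well known from normal liver and have been described as lower in many hepatocellular carcinomas.

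The mature sequences are shown first because the families are near-identical, which bears on what each probe can tell apart. They are RefSeq sequences on GRCh38.p14, all 6 members matched, and the seed, bases 2 to 8 from the 5′ end, is in capitals. The first 3 share the seed of the miR-99/100 family, the next 2 share that of the miR-125 family, and miR-125a-3p has a seed of its own.
hsa-miR-99a (chr21:16539101-16539122, + strand): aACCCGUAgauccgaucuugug
hsa-miR-100 (chr11:122152275-122152296, - strand): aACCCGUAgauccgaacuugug
hsa-miR-99b (chr19:51692618-51692639, + strand): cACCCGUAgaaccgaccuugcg
hsa-miR-125a-5p (chr19:51693268-51693291, + strand): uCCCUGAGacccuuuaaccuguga
hsa-miR-125b (chr11:122099809-122099830, - strand, and chr21:16590253-16590274, + strand): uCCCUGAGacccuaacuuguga
hsa-miR-125a-3p (chr19:51693306-51693327, + strand): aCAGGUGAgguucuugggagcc

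Counting positions from 1 at the 5′ end, miR-99a differs from miR-100 by the single substitution U16A and from miR-99b by A1C, U11A, U16C and U21C. miR-125a-5p and miR-125b share their first 13 bases and are 3 edits apart over lengths of 24 and 22 bases. Among 2370 human mature miRNA names of the RefSeq table, the miR-99/100 seed occurred in 3 names (0.127%), all of them members. The miR-125 seed also occurred in 3 names, the 2 members and miR-4319. The seed of miR-125a-3p occurred in that miRNA alone.

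The 3 gene clusters differ in their spacing. On chromosome 19 the hairpins MIR99B, MIRLET7E and MIR125A lie within 728 bases, inside the bounds of the protein-coding gene SPACA6 and of the long non-coding RNA gene SPACA6-AS1. On chromosome 11 MIR100, MIRLET7A2 and MIR125B1 span 52552 bases inside MIR100HG, and on chromosome 21 MIR99A, MIRLET7C and MIR125B2 span 51237 bases inside MIR99AHG, both of them long non-coding RNA genes. Whether the hairpins lie in exons or introns was not resolved with the gene table used here. The hairpins of the chromosome 19 cluster are printed with both mature arms in capitals, since probes for both arms of MIR99B and MIR125A, and for the 5p arm of MIRLET7E, were on the array.
MIR99B (chr19:51692612-51692681, + strand): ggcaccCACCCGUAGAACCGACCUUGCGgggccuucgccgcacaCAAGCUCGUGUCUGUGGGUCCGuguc
MIRLET7E (chr19:51692786-51692864, + strand): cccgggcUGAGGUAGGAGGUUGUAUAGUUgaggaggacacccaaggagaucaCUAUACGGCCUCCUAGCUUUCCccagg
MIR125A (chr19:51693254-51693339, + strand): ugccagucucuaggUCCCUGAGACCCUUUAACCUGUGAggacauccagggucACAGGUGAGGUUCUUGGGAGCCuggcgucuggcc

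**Figure D1:**
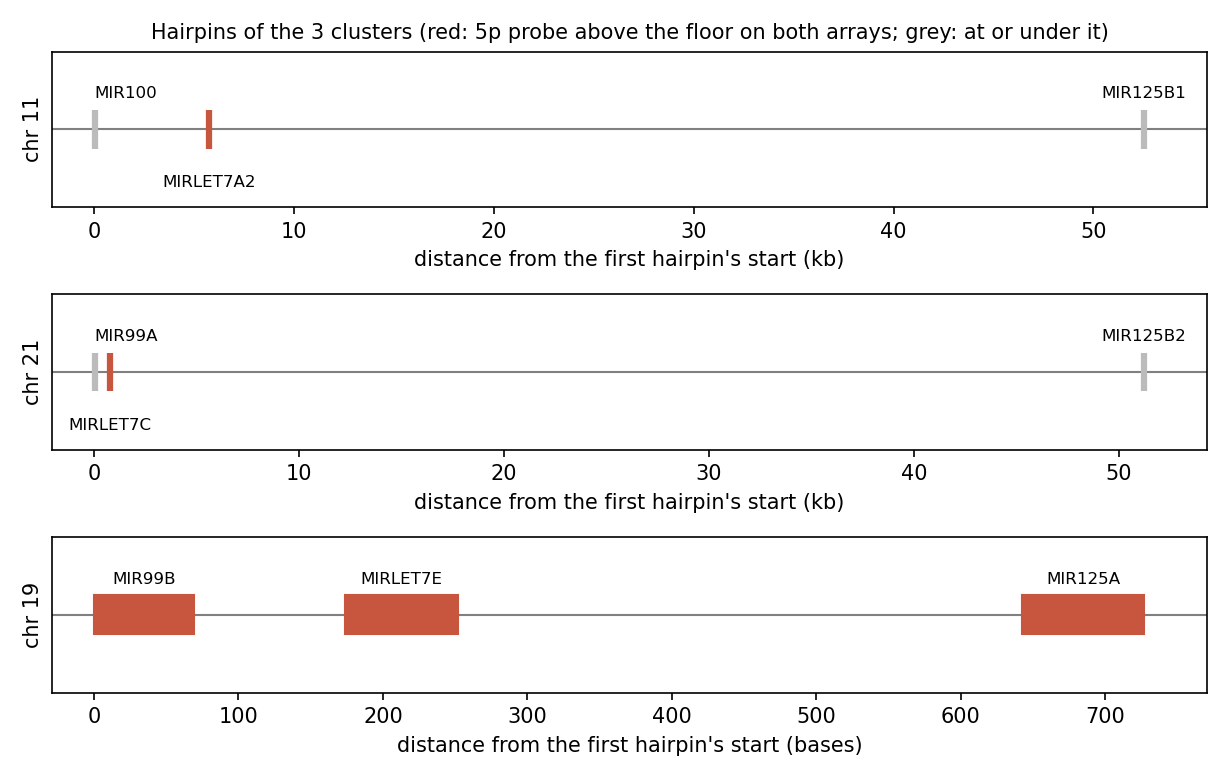
Hairpins of the 3 clusters by distance from the start of the first hairpin, in kb for chromosomes 11 and 21 and in bases for chromosome 19; hairpins on chromosomes 11 and 21 are ticks of fixed width, those on chromosome 19 are boxes to scale. Red marks a 5p product whose probe lay above the floor on both arrays and grey one at or under it; let-7a can also come from 2 other genes.

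Every value is a log2 fluorescence, 1 per probe and array. The smallest deposited value was 5.64 on both arrays (a fluorescence of 50), and 343 of the 718 names (47.8%) held it on the control array and 257 on the array labelled TCDD. A floor was set at 2 times this value, 6.64 on the log2 scale or a fluorescence of 100, and a name above it on at least 1 array is called detected. By this rule 242 of 718 names (33.7%) were detected. Brightness depends on the probe as well as on the RNA, so levels are compared between arrays for 1 probe and not between probes.

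The members separated by gene cluster: the 3 detected members all come from the chromosome 19 cluster, and the 3 undetected ones from the chromosome 11 and 21 clusters. The count of 3 detected out of 6 stands beside the 33.7% detected over the whole array, and with 6 members it is a description of these arrays. All 3 chromosome 19 members were above the floor on both arrays, and none of the others reached it on either array.

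miR-99b, the miR-99/100 family member of chromosome 19, was at 11.59 on the control array and 11.41 on the array labelled TCDD, fluorescences of 3076 and 2723. The second minus the first gives a log2 difference of -0.18, a 1.13-fold lower signal. miR-125a-5p, the miR-125 guide of the same cluster, was at 11.46 and 11.21 (fluorescences of 2817 and 2362), a difference of -0.25 and a 1.19-fold lower signal. Both guides were thus slightly lower on the array labelled TCDD, and their differences lay 0.08 apart. miR-125a-3p, which is cut from the other side of the same hairpin as miR-125a-5p, was at 7.69 and 7.72 (fluorescences of 207 and 211), a difference of 0.03.

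miR-100, the miR-99/100 family member of chromosome 11, held the smallest deposited value of 5.64 on both arrays. miR-99a, that of chromosome 21, was at 5.64 on the control array and 5.83 on the array labelled TCDD, where its fluorescence was 56.8. miR-125b, which both of these clusters encode with the same mature sequence, was at 5.64 and 5.998, the latter a fluorescence of 63.9. These probes lay under the floor on both arrays, so no fold is given, and the data set an upper limit of 100 fluorescence units on each signal without showing that the RNAs were absent. The small steps of miR-99a and miR-125b above the smallest value were shared by many dim probes: of the 343 names at the smallest value on the control array, 106 lay above it on the array labelled TCDD, 46 of them at or above the miR-99a value and 20 at or above the miR-125b value. In the opposite direction, 20 names were at the smallest value on the array labelled TCDD alone.

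**Figure D2:**
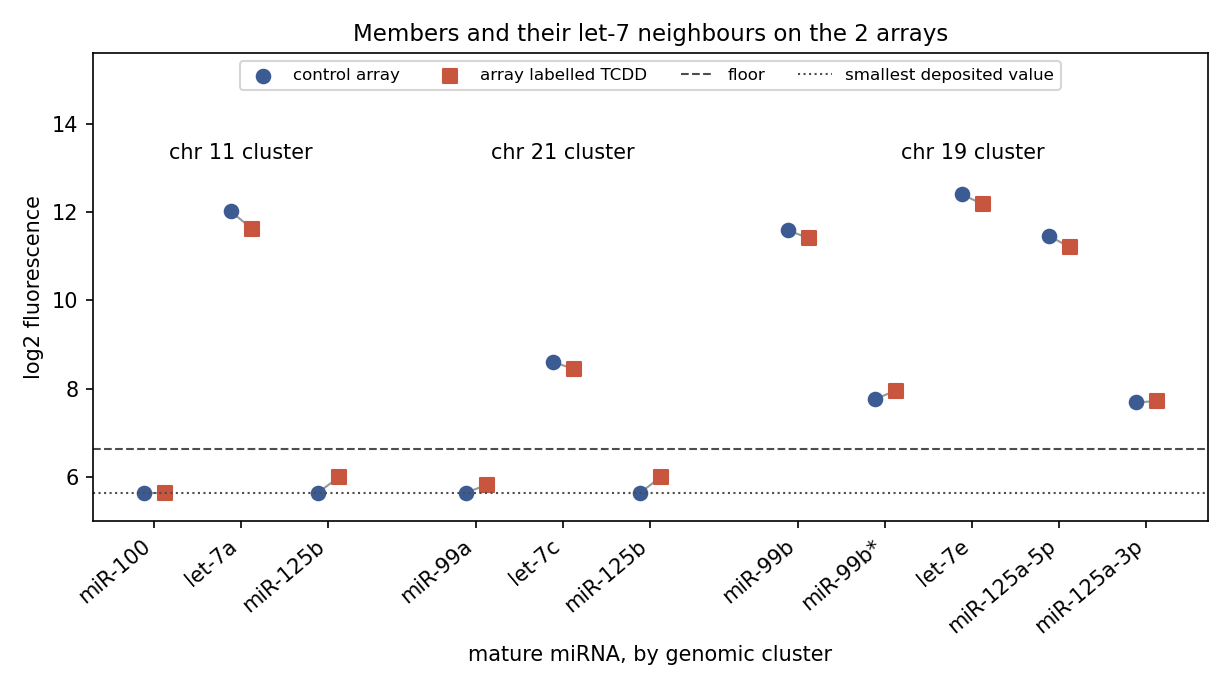
Log2 fluorescence on the control array (circles) and on the array labelled TCDD (squares) for the members, their let-7 neighbours and miR-99b*, by gene cluster, with 1 point per array and no error bars because each group has 1 array. Products of chromosome 19 lie above the dashed floor of 6.64 on both arrays, while miR-100, miR-99a and miR-125b (drawn in both of its clusters) lie under it; levels of different probes are not comparable.

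The detected and undetected probes of a family target closely similar sequences. The miR-125a-5p probe was bright on both arrays while that for miR-125b, 3 edits away, was under the floor on both. Likewise the miR-99b probe was bright while those for miR-99a and miR-100, each 4 substitutions from miR-99b, were under the floor. How far each probe also binds the other family members was not tested here, and the deposited table holds no probe sequences.

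The let-7 neighbours of all 3 clusters were detected. All 3 of them had lower values on the array labelled TCDD, as had 122 of the 242 detected names. let-7e, which lies between MIR99B and MIR125A, had 12.40 on the control array and 12.18 on the other, a difference of -0.22. let-7c of chromosome 21 was at 8.61 and 8.45, a difference of -0.15. let-7a, whose mature sequence is encoded by MIRLET7A2 of the chromosome 11 cluster and by 2 further genes on chromosomes 9 and 22, was at 12.02 and 11.63, a difference of -0.39. Of the 3 guide products encoded by the chromosome 11 cluster, only let-7a was detected, and its signal cannot be assigned to that cluster. Of those encoded by the chromosome 21 cluster, only let-7c was detected.

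The let-7 neighbours are printed because they differ by 1 or 2 bases: let-7c differs from let-7a by A19G, let-7e from let-7a by U9G. The extent to which the let-7a and let-7c signals include other let-7 RNAs was not tested.
hsa-let-7a: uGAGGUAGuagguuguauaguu
hsa-let-7c: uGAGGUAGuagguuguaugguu
hsa-let-7e: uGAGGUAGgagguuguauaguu

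By hairpin arm, the 3 guide products of the 5p side of the chromosome 19 cluster (miR-99b, let-7e and miR-125a-5p) had differences between -0.25 and -0.18, with a median of -0.22. The 2 measured products of its 3p side had differences above 0 as deposited. However, miR-125a-3p was at -0.03 once a fitted curve, called the authors' curve below, was removed. The 3p products were miR-125a-3p at 0.03 and miR-99b*, the 3p arm of the miR-99b hairpin, at 0.19 (7.76 in control, 7.96 on the other array). Over both arrays the 5p probes read 11.21 to 12.40 and the 3p probes 7.69 to 7.96. Arm and signal level therefore coincide here and cannot be told apart. Over the whole array, 19 of 51 detected human star arms had a difference above 0 (median -0.06). So had 89 of the other 171 detected human miRNA names (median 0.02). The star is part of a name and does not mark the 3p side. miR-125a-3p, which has no star, is among the 171, and shares by 5p and 3p side were not counted. The let-7e star arm had no probe of that name on the array. The other 6 star arms of these hairpins that were on the array, those of miR-99a, miR-100, both miR-125b hairpins, let-7a and let-7c, were under the floor on both arrays.

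None of the 3 detected members was 2-fold apart between the arrays, as was the case for all but 7 of the 242 detected names (2.89% at least 2-fold apart). Over the probes above the floor on both arrays, the log2 differences had a robust SD (from the median absolute deviation) of 0.28. It measures how much probes differ among each other, not replicate error, and 157 of the 242 differences (64.9%) were smaller in size, those of all 3 members among them. Ranked from the lowest difference, miR-125a-5p stood at place 46 of 242, let-7e at 55, miR-99b at 61, miR-125a-3p at 132 and miR-99b* at 184. Of the other let-7 neighbours, let-7c stood at place 71 and let-7a at 22. The let-7a difference of -0.39 was larger in size than the robust SD. The span from miR-125a-5p to miR-125a-3p held 87 of the 242 differences (36.0%). The median over the 3 detected members was -0.18, beside -0.003 over all detected names. For the 3 detected members and let-7e together, leaving out miR-99b*, the median was -0.20.

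**Figure D3:**
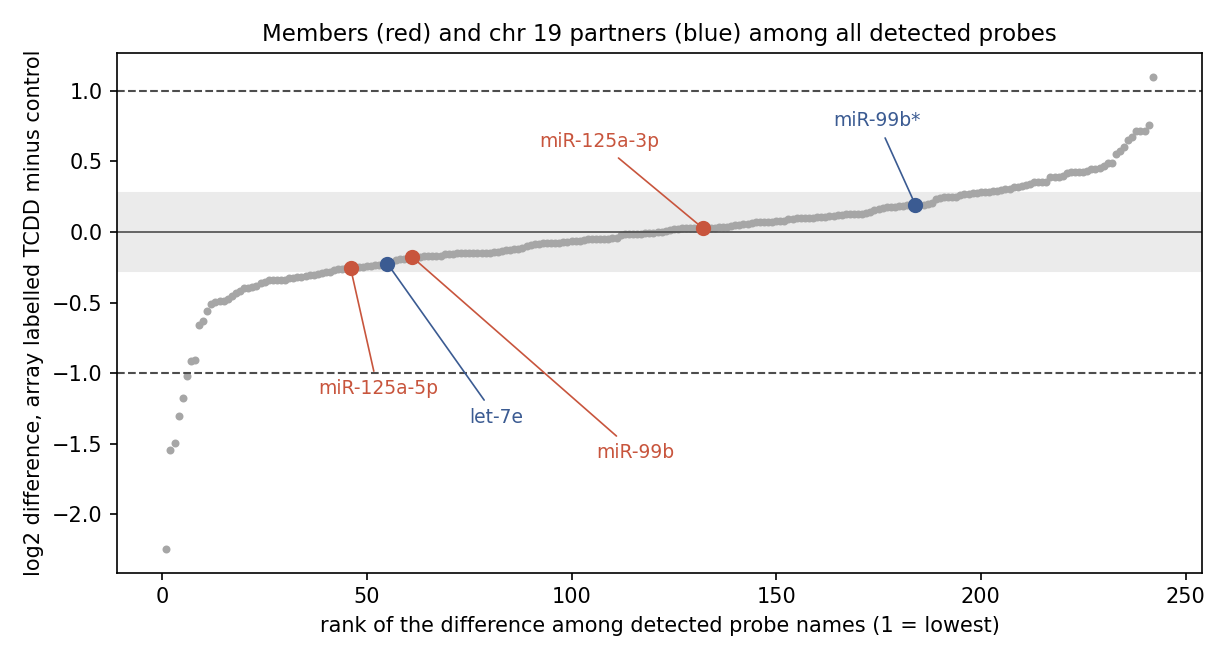
Log2 difference (array labelled TCDD minus control) of the 242 detected names in order of rank, with members in red, let-7e and miR-99b* in blue, the 2-fold threshold dashed and the robust SD of 0.28 shaded. The 5 labelled products all lie inside the shaded band, the 3 guides of the 5p side below 0 and the 2 products of the 3p side above it (miR-125a-3p fell to -0.03 without the authors' curve).

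The place of each probe in the order of brightness cannot be altered by any scaling that keeps the order. Shifts of place over all detected names were not summarized, so those below have no reference. miR-99b went from place 55 of 718 on the control array to 59 on the array labelled TCDD and miR-125a-5p from 58 to 62. let-7e went from 42 to 44, and miR-125a-3p from 167 to 163. miR-99b* moved from 165 to 150.

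A smooth curve fitted to the deposited values of each array is called the authors' curve here. Its origin in their processing was inferred and is not stated in the sources used. Removing the curve lowered the differences of the whole array, with a median of -0.07 over the detected names in place of -0.003. Before that curve the difference was -0.30 for miR-99b, -0.38 for miR-125a-5p, -0.35 for let-7e and -0.03 for miR-125a-3p, whose sign thus turned. miR-99b* kept a difference above 0 there, at 0.13. After quantile normalization let-7e was at -0.08, let-7c at -0.04 and miR-99b* at 0.30, while miR-99b and miR-125a-5p were at -0.23 and -0.27.

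**Figure D4:**
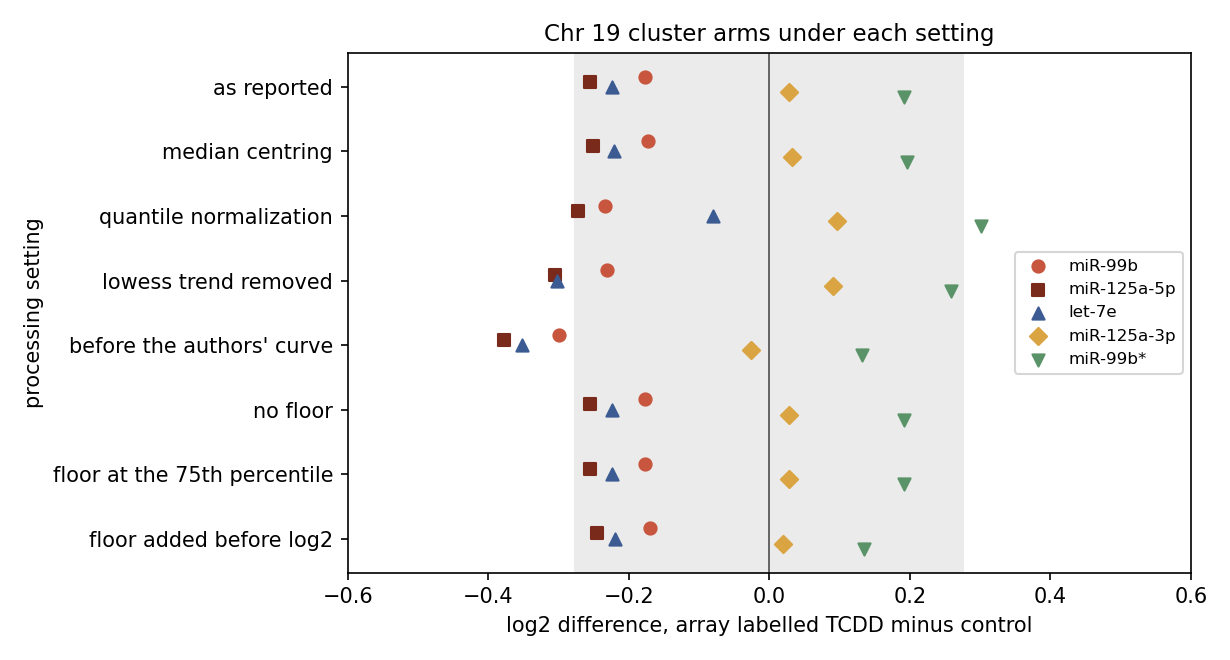
Log2 difference (array labelled TCDD minus control) of the 5 detected products of the chromosome 19 cluster under 8 processing settings, 1 point per product and setting, with the robust SD of 0.28 shaded. miR-99b, miR-125a-5p and let-7e lie below 0 and miR-99b* above 0 under each setting shown, while miR-125a-3p turns from 0.03 to -0.03 before the authors' curve. Dropping or raising the floor could not alter these products, which lay above it. Median centring moved all differences by the same amount, too small to turn any sign shown. These settings therefore do not test the signs.

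Of the other 6 members of the let-7 family, 5 were detected, and 4 of these had differences below 0, beside 122 of 242 over all detected names. They ran from let-7i at -0.42 and let-7b at -0.26 to let-7f at -0.11 and let-7d at -0.05, and all but let-7i lay within the robust SD of 0.28. let-7g was at 0.02 as deposited and at -0.06 before the authors' curve, and let-7f turned to 0.005 after quantile normalization. miR-98 was under the floor on both arrays. The miR-10 family, relatives of miR-99/100 with a similar sequence but a different seed, was undetected. miR-10a, miR-10b and both of their star arms lay under the floor on both arrays. The sequence of miR-10a, with its seed in capitals, is shown beside that of miR-99a for this resemblance, and they are 4 edits apart.
hsa-miR-10a (chr17:48579904-48579926, - strand): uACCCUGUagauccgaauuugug
hsa-miR-99a: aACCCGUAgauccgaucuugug

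With 2 arrays the likeness of patterns reduces to the closeness of 2 log2 differences, and many probes are close. Nearest to miR-99b were miR-455-5p and miR-425*, both at -0.18. Nearest to miR-125a-5p were miR-361-3p at -0.25 and let-7b at -0.26, and nearest to miR-125a-3p were miR-145 and miR-517c, both at 0.03.

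Of the liver miRNAs, miR-192 was at 13.88 in control and 13.96 on the other array, and miR-194 was at 12.34 and 13.06, a 1.64-fold higher signal whose difference of 0.72 stood at place 240 of 242. The main hepatocyte miRNA, miR-122a, was dim (7.60 and 7.59), miR-148a was under the floor, and the summed fluorescence of the 4 liver probes was 20592 and 24726. None of 6 blood, 5 muscle and 3 neural marker miRNAs on the array was detected, with summed fluorescences of 313, 274 and 164 in control and 311, 265 and 189 on the array labelled TCDD, where a probe at the smallest value counts 50. Of 4 fibroblast and smooth muscle miRNAs, miR-143 and miR-145 were detected, and the summed fluorescence of the list was 6661 and 6945. Whether these lists bear on the members' values was not tested.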

How the data were processed

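The authors deposited 1 log2 fluorescence value per probe and array, from a single channel of 2-colour arrays whose other channel held unrelated samples, per the labels' protocols and design text. How the arrays were scanned, background-corrected and scaled is not given in the sources used here. Probe numbers and a prefix were stripped from names, and 719 probes gave 718 names after averaging probes of 1 name. Members are those named in the rule. Members, lists and tests were chosen with earlier results of these data known.

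Values under the floor, 2 times the smallest value, were set to it before the log2 difference (TCDD minus control) was taken. With 1 array per group there is no p-value, SE or SD, and precision is limited by the number of arrays. Named are the members, their let-7 neighbours and star arms, 2 related lists, cell type markers and, per detected member, the 2 human miRNAs with the closest difference.

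Alternatives were median centring, quantile normalization, lowess (fraction 0.5), a floor at the 75th percentile, an added floor, values with no floor, 1.5-fold and 3-fold thresholds, human names alone, the member median without miR-125a-3p, and values before the authors' curve. That curve multiplied each value on a grid of single units by a factor. The log2 of this factor was fitted as a polynomial of degree 2 in the log2 of the grid value. The curve matched 96.0% of 375 control values and 100% of 461 TCDD values to within 0.05 units. The fitted grid lay 0.83 units off whole numbers for the control array and 0 units off for the array labelled TCDD. The code was tested on simulated data with changes larger than any member's difference and a curve without noise. That run therefore does not test differences of the members' size. Sequences and gene positions are RefSeq's on GRCh38.p14, and older names without an arm were taken as the 5p arm. Tools were Python 3.11.15, numpy 2.4.6, pandas 2.3.3, statsmodels 0.14.6 and matplotlib 3.10.9.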

Additional observations from a re-analysis of the deposited data

How the results depend on the processing

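All 78 alternative values of the 11 differences and medians (members, let-7 neighbours, miR-99b* and clusters) shifted by under 0.28, the robust SD. Most of the differences are themselves smaller than that, so this says little. The 11 are also not separate quantities. The chromosome 11 median is let-7a alone and the chromosome 21 median let-7c alone. The median of detected members equals miR-99b in every setting that keeps miR-125a-3p. miR-99b ranged from -0.30 to -0.17 and miR-125a-5p from -0.38 to -0.25, both lowest before the authors' curve, and miR-125a-3p from -0.03 to 0.10, with 1 change of sign. let-7e ranged from -0.35 to -0.08, let-7c from -0.23 to -0.04, let-7a from -0.52 to -0.33 and the median of detected members from -0.30 to -0.17. Several settings barely alter probes well above the floor. Dropping or raising the floor left all 11 unchanged, because the detected products lay above it either way. Median centring moved every difference by the same amount, too small to turn any of these signs. The unchanged signs under these settings were therefore fixed in advance and are no test. The count of names at least 2-fold higher, 1 as reported, became 0 without the lowess trend and 0 without the authors' curve. It became 8 when the floor was dropped, 8 under a 1.5-fold threshold and 0 under a 3-fold one. Names at least 2-fold lower, 6 as reported, numbered 10 and 1 under these thresholds. No member was among these at 1.5-fold or above. Dropping the floor kept the same detected names, so the names it added can only be ones under the floor on the control array. The cause of the shifts without the lowess trend or the authors' curve was not tested. No paired analysis was possible because a single array stands for each group, which also leaves no replicate to omit. The floor limits miR-99a, miR-100 and miR-125b, for which no difference can be given.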
